A study of Mus musculus with 4 samples.

Results

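Collagen VI and a set of matricellular and adhesive glycoproteins of the extracellular matrix are described here in cultured mouse embryonic fibroblasts (MEFs). The 10 genes were chosen by name: the collagen VI chain genes Col6a1, Col6a2 and Col6a3, the adhesive glycoprotein genes Fn1, Tnc and Postn, and Sparc, Thbs1, Thbs2 and Spp1. Of these, 9 could be matched to the 16612 named mouse genes with a value, each through 1 transcript entry. No entry matched the transcript accessions of Col6a3, so this chain is not analysed here. Levels are given in RPKM, reads divided by the length of the transcript and by the read total of the library, so they can be set side by side between genes of different length. Of the 9 genes, 8 reached 1 RPKM in at least 1 library and were compared among 14386 genes and unnamed transcripts that did so. Postn did not reach it.

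RNA was sequenced from MEFs labelled Mll1-/- and from wild-type MEFs, labelled Mll1+/+. Cells of each genotype were given tumour necrosis factor alpha (TNF) or a control solution and were harvested after 4 hr. The 4 groups are Mll1-/- with TNF, Mll1-/- control, Mll1+/+ with TNF and Mll1+/+ control, all grown in DMEM with foetal bovine serum. The TNF dose is 10 ng/ml in the series' design text, and the treatment protocol states it in a different unit. Cells from 3 independent rounds of each treatment were pooled before sequencing, so each group is 1 library. The labels do not say which part of Mll1 is deleted, from how many embryos the cells came, or whether each genotype is 1 clone or line. Because no group has a replicate, no difference was tested, and the intervals below are 95% counting intervals on the reads. They cover counting error alone, as reads counted without molecular identifiers need not stem from separate molecules, and any lasting difference between the cultures cannot be told apart from genotype.

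Collagen VI is assembled in the cell from alpha-1, alpha-2 and an alpha-3-type chain and is secreted as beaded microfibrils that surround cells in connective tissue and muscle. Matricellular proteins are secreted into the matrix but act mainly by binding cell-surface receptors, growth factors and other matrix proteins, and many are high in embryonic tissue and in healing wounds. Fibroblasts are a main source of both. TNF is an inflammatory cytokine that signals through NF-kB, and Mll1 (Kmt2a) is a methyltransferase of lysine 4 of histone H3.

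The read totals behind the RPKM were recovered from the deposited values. They were 19306506 for Mll1-/- with TNF, 20081869 for Mll1-/- control, 27977248 for Mll1+/+ with TNF and 27728647 for Mll1+/+ control. Reads summed over 1 entry per named gene came to 28165573 and 28107245 in the Mll1+/+ TNF and control libraries, more than those totals. A read may thus be counted in more than 1 entry, or the totals may leave reads out. The counting intervals treat the reads as separate. The targeted gene, Kmt2a, had 1.66 and 2.02 RPKM in the Mll1-/- TNF and control libraries, against 2.11 and 1.85 RPKM in the Mll1+/+ TNF and control libraries. Its Mll1-/- to Mll1+/+ ratio was 0.785 (0.705 to 0.874) with TNF and 1.09 (0.985 to 1.21) in the controls. A value over the whole transcript does not check a deletion of unstated extent, so the genotypes are given as labelled throughout. Of 10 fibroblast markers with an entry, 9 reached 1 RPKM, and their summed level was 5033 and 4140 RPKM in the Mll1-/- TNF and control libraries, against 5082 and 5535 in the Mll1+/+ ones. Most of that sum was Vim and S100a4, and single markers moved with genotype. In the controls 4 of the 9 were higher past a 2-fold difference (Col3a1, Col1a2, Pdgfra and Col1a1) and S100a4 was lower. Of all 14386 genes and unnamed transcripts, 7.11% were higher and 7.99% lower in the controls. With TNF 4 of the markers were higher and 0 lower, where 6.71% of all were higher and 4.50% lower. Col3a1 had 23.5 and 28.1 RPKM in the Mll1-/- TNF and control libraries, against 0.296 and 0.531 RPKM in the Mll1+/+ ones. None of 4 macrophage, 5 endothelial and 5 epithelial markers reached 1 RPKM in any library. The count was 1 of 5 for osteoblast, 1 of 2 for chondrocyte, 4 of 5 for smooth muscle and 1 of 6 for neural markers. Summed smooth muscle markers stood at 195 and 183 RPKM in the Mll1-/- TNF and control libraries, against 91.0 and 102 in the Mll1+/+ ones, nearly all of it Acta2, and summed neural markers at 38.1 and 34.7 against 9.09 and 9.79, nearly all of it Tubb3. These markers move with genotype, as do several members below, and their part in those results was not tested. In such bulk samples fewer cells of a type and less RNA per cell cannot be told apart.

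Promoters are shown for the collagen VI chains, which were lower in the Mll1-/- libraries by the largest ratios among the members, for Tnc, which was higher by the largest, and for Spp1, the most abundant member. Each runs from 250 bases before to 50 bases after the annotated transcript start, 5′ to 3′ on the strand of the gene, from RefSeq on GRCm38.p6. Capitals mark matches, on either strand, to the core promoter motif TATAAA, the upstream box motif CCAAT, the Sp1-type GC box motif GGGCGG, the AP-1 site motif TGANTCA or the NF-kB consensus. Positions count from the transcript start, negative before it.
Col6a1, chr10:76725995-76726294, minus strand: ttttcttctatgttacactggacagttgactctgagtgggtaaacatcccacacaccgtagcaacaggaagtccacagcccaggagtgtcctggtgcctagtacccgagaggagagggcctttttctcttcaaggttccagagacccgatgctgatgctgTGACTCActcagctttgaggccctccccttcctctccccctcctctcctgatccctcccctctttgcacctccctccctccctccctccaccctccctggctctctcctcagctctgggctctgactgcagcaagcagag
Col6a2, chr10:76623355-76623654, minus strand: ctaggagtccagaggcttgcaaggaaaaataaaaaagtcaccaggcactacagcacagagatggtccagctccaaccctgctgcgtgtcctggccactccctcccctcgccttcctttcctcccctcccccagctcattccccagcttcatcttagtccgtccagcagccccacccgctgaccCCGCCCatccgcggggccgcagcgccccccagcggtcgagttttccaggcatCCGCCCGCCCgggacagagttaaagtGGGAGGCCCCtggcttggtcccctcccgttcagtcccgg
Tnc, chr4:64046966-64047265, minus strand: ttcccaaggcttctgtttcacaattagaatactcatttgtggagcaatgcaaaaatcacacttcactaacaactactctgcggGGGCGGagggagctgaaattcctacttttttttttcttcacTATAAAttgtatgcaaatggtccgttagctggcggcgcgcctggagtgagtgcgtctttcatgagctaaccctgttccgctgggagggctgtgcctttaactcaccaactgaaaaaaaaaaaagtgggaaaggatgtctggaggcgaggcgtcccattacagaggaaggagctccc
Spp1, chr5:104434861-104435160, plus strand: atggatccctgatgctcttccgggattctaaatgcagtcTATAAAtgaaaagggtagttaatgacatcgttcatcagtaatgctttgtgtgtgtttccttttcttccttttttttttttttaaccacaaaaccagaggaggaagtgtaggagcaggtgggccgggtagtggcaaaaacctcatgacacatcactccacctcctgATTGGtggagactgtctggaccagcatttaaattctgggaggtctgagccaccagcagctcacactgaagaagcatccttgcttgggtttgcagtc
For Col6a2, Tnc and Spp1 this is 1 of 2 starts in the table.

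The Col6a1 window held 1 AP-1 match, beginning at -90, and was poor in CpG with 3 in its 300 bases, against a median of 7 over the 32851 promoters in the table. The Col6a2 window held 16 CpG, 3 GC boxes read on the other strand at -67, -15 and -11, of which the last 2 overlap in the printed run, and 1 NF-kB consensus at 12. The transcript measured for Col6a2 begins at -226 of this window, which is the other start. The window of that start held 6 CpG, 1 GC box at -175, read on the other strand, and 1 NF-kB consensus at -81. In the Tnc window a GC box stood at -167 and a TATAAA at -126. In the Spp1 window a TATAAA stood at -211 and a CCAAT, read on the other strand, at -46. The 2 printed collagen VI windows shared none of the 5 motifs. The transcript measured for Col6a1 begins at -124 of its window, so the AP-1 match at -90 lies after that start. Any part of these letters in the pattern of the 2 genes was not tested. Among all 32851 promoters, TATAAA was found in 13.6%, CCAAT in 37.4%, GGGCGG in 35.7%, TGANTCA in 7.81% and the NF-kB consensus in 8.46%. A match is a description of the letters and not a binding site.

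In every library Spp1 and Sparc had the highest levels of the 9 genes and Postn the lowest, and the genes between them changed places with genotype. In the Mll1-/- libraries the order after Spp1 and Sparc was Fn1, Thbs1, Tnc, Col6a1, Thbs2, Col6a2 and Postn, with and without TNF, and no neighbours in that order had overlapping counting intervals. In the Mll1+/+ TNF library it was Col6a1, Fn1, Thbs1, Col6a2, Tnc, Thbs2 and Postn, where Thbs1 and Col6a2, and Tnc and Thbs2, overlapped. The Mll1+/+ control library had the order Col6a1, Thbs1, Fn1, Col6a2, Thbs2, Tnc and Postn, where Col6a1 and Thbs1 overlapped. Collagen VI alpha-1 was thus the third of the members in Mll1+/+ cells and the sixth in Mll1-/- cells. The 8 genes other than Postn together took 0.424% and 0.446% of the reads of named genes in the Mll1-/- TNF and control libraries, against 0.379% and 0.399% in the Mll1+/+ ones.

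**Figure D1:**
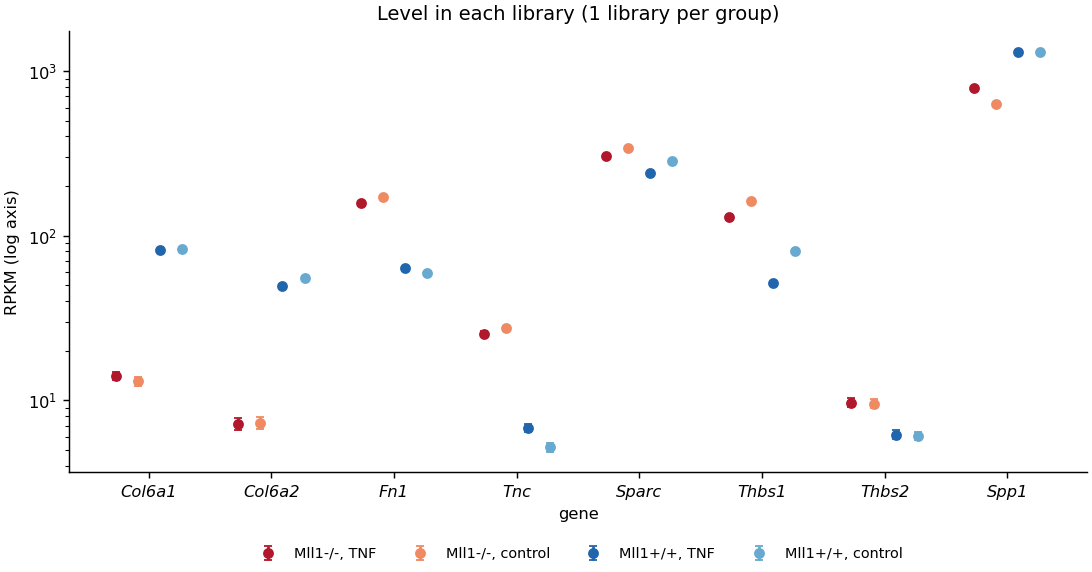
RPKM of 8 members on a log axis, with 4 points for each gene, from left to right Mll1-/- with TNF, Mll1-/- control, Mll1+/+ with TNF and Mll1+/+ control, and 95% counting intervals. Col6a1 and Col6a2 lie lower in both Mll1-/- libraries (7.15 to 14.03 RPKM) than in both Mll1+/+ libraries (49.3 to 83.4 RPKM), while Fn1 and Tnc lie higher. Postn, at 0.0673 RPKM or less, is not drawn.

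For the genotype comparison, Mll1-/- was set over Mll1+/+ within each treatment on the log2(RPKM + 0.5) scale, which understates the difference of low genes, and a log2 ratio of 1 or more in size was counted as past the size rule. With TNF, 3 of the 8 members were higher past the rule (Tnc, Thbs1 and Fn1) and 2 were lower (Col6a1 and Col6a2), where 6.71% of all 14386 were higher and 4.50% lower. In the controls, 2 were higher (Fn1 and Tnc) and 3 lower (Col6a1, Col6a2 and Spp1), where 7.11% of all were higher and 7.99% lower. Members past the rule in both directions were thus a larger share of the 8 than of all genes, in a list chosen with earlier results known, and this was not tested. The members' median log2 ratio was 0.47 with TNF and 0.44 in the controls, against -0.05 and -0.07 over all. The counting interval of the read ratio excluded 1 for all 8 members in both comparisons. The share over all genes was not computed. Counting intervals narrow as reads rise, and that of Sparc excluded 1 at a ratio of 1.21 in the controls.

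**Figure D2:**
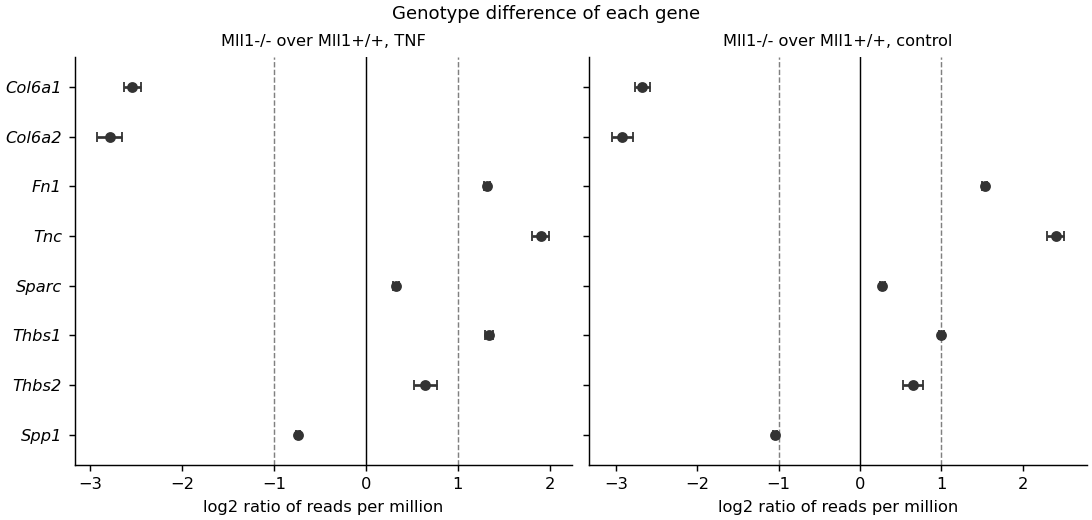
Log2 of the Mll1-/- to Mll1+/+ read ratio, scaled to library totals, for 8 members, with TNF (left) and in the controls (right). Bars are 95% counting intervals, and dashed lines mark 1 and -1. Col6a1 and Col6a2 lie beyond -1 in both panels and Tnc and Fn1 beyond 1. Thbs1 lies beyond 1 with TNF and at the line in the controls, Spp1 lies near -1 in the controls, and Sparc and Thbs2 lie between the lines.

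The collagen VI chains were the members with the lowest genotype ratios, and they moved together. Col6a1, the alpha-1 chain, had 14.03 and 13.0 RPKM in the Mll1-/- TNF and control libraries, against 81.6 and 83.4 RPKM in the Mll1+/+ TNF and control libraries. Both Mll1-/- values lay far below both Mll1+/+ values. Every compared member separated by genotype in this way, in 1 direction or the other, and the share over all genes was not computed. The TNF and control libraries of a genotype are not replicates. On reads it was 5.81 times lower with TNF (5.46 to 6.20) and 6.40 times lower in the controls (6.002 to 6.83), log2 ratios of -2.50 and -2.63. In the controls, 91 of the 14386 genes (0.633%) had a lower log2 ratio.

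Col6a2, the alpha-2 chain, had 7.15 and 7.26 RPKM in the Mll1-/- TNF and control libraries, against 49.3 and 55.1 RPKM in the Mll1+/+ TNF and control libraries. Both Mll1-/- values again lay below both Mll1+/+ values. It was 6.90 times lower with TNF (6.30 to 7.57) and 7.58 times lower in the controls (6.94 to 8.29), log2 -2.70 and -2.84, and in the controls 76 genes (0.528%) lay below it. The ratio of Col6a1 to Col6a2, per length, was 1.96 (1.76 to 2.18) and 1.79 (1.62 to 1.99) in the Mll1-/- TNF and control libraries, against 1.65 (1.60 to 1.71) and 1.51 (1.47 to 1.57) in the Mll1+/+ ones. The alpha-2 chain was therefore the lower of the pair in all 4 libraries, and by more in the Mll1-/- ones at each treatment. The other collagen VI chains with an entry, Col6a4, Col6a5 and Col6a6, had at most 4 reads in any library.

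Among named genes of at least 1 RPKM, Col6a1 and Col6a2 are neighbours on chromosome 10, in the order Mcm3ap, Lss, Col6a2, Col6a1, Pcbp3 and Slc19a1. These neighbours were looked at after the values were seen. Pcbp3, which encodes a poly(C)-binding protein and lies beside Col6a1, had 13.3 RPKM in each Mll1-/- library, against 0.164 and 0.116 RPKM in the Mll1+/+ TNF and control libraries (log2 4.38 with TNF and 4.49 in the controls). Slc19a1, the reduced folate carrier gene, had 35.4 and 32.8 RPKM in the Mll1-/- TNF and control libraries, against 14.3 and 15.5 RPKM in the Mll1+/+ ones (1.28 and 1.05). Both genes on that side were thus higher past the size rule where the collagen chains were lower. On the other side Lss, the lanosterol synthase gene, had log2 ratios of -0.38 with TNF and -0.33 in the controls, in the direction of the collagen chains, and Mcm3ap had 0.09 and 0.46 in the other, all within the size rule.

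**Figure D3:**
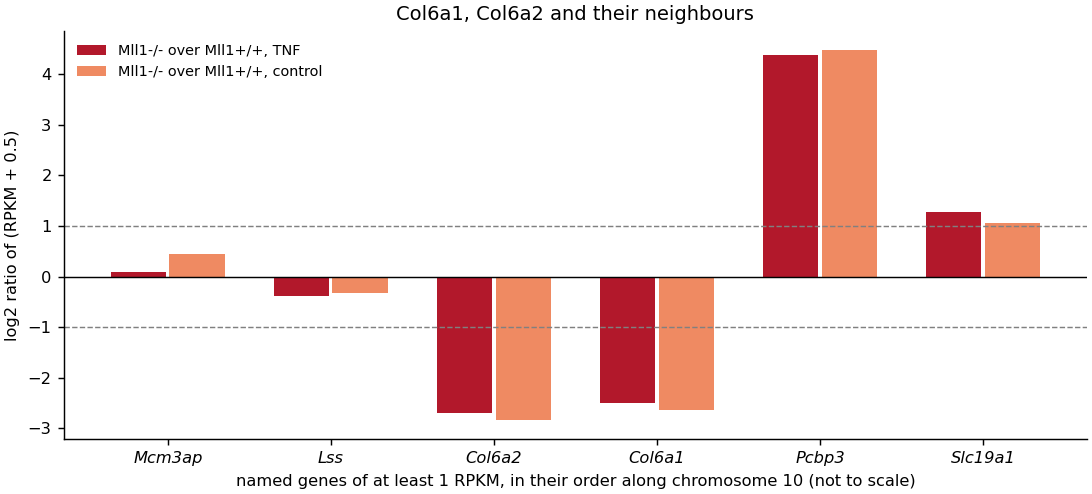
Log2 ratio of Mll1-/- over Mll1+/+ on the log2(RPKM + 0.5) scale for Col6a2, Col6a1 and the neighbouring named genes of at least 1 RPKM in chromosomal order, with TNF and in the controls. The collagen VI bars reach -2.84, and the bar of Pcbp3, next to Col6a1, reaches 4.49.

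Of the adhesive glycoprotein genes, Fn1 and Tnc were higher in the Mll1-/- libraries, and Postn was too low to compare. Fn1 encodes fibronectin, to which cells attach mainly through integrin alpha-5 beta-1. It had 158 and 171 RPKM in the Mll1-/- TNF and control libraries, against 63.3 and 59.1 RPKM in the Mll1+/+ TNF and control libraries. Both Mll1-/- values were above both Mll1+/+ values. The read ratio was 2.49 with TNF (2.44 to 2.54) and 2.89 in the controls (2.83 to 2.95), log2 1.31 and 1.52, and 3.93% of all genes had a higher log2 ratio in the controls.

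Tnc encodes tenascin-C, a large glycoprotein of embryonic and wounded tissue that loosens the attachment of cells to fibronectin. It had 25.3 and 27.2 RPKM in the Mll1-/- TNF and control libraries, against 6.77 and 5.15 RPKM in the Mll1+/+ TNF and control libraries. The read ratio was 3.74 with TNF (3.51 to 3.99) and 5.29 in the controls (4.93 to 5.68), log2 1.83 and 2.30. In the controls 234 genes (1.63%) had a higher log2 ratio. A long non-coding RNA gene, 8030451A03Rik, is annotated over Tnc, and without strand its reads cannot be told apart from those of Tnc. Fibronectin RNA exceeded that of tenascin-C by 6.22 and 6.28 times per length in the Mll1-/- TNF and control libraries, against 9.34 and 11.5 times in the Mll1+/+ ones.

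Postn, which encodes periostin, a binding partner of fibronectin, tenascin-C and collagen, was close to 0 everywhere. It had 0 and 2 reads in the Mll1-/- TNF and control libraries, against 6 and 1 reads in the Mll1+/+ TNF and control libraries. At these counts no difference was detectable.

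Because Col6a1 was lower and Fn1 and Tnc were higher, their proportions differed more between the genotypes than each level did. Fn1 stood at 11.2 and 13.1 times the level of Col6a1 in the Mll1-/- TNF and control libraries, against 0.775 and 0.709 times in the Mll1+/+ ones. Tnc stood at 1.81 and 2.09 times the level of Col6a1 in the Mll1-/- TNF and control libraries, against 0.0830 and 0.0618 times in the Mll1+/+ ones. Ratios within a library do not depend on how the libraries are scaled to each other.

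Sparc, a collagen-binding protein that counteracts cell spreading, differed least. It had 303 and 340 RPKM in the Mll1-/- TNF and control libraries, against 241 and 282 RPKM in the Mll1+/+ TNF and control libraries. The read ratio was 1.26 with TNF (1.23 to 1.29) and 1.21 in the controls (1.18 to 1.23), log2 0.33 and 0.27, within the size rule. The lower Mll1-/- value exceeded the higher Mll1+/+ value, but by little.

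The thrombospondins bind CD47 and CD36 on cells, and thrombospondin-1 also releases TGF-beta from its latent form. Thbs1 had 130 and 161 RPKM in the Mll1-/- TNF and control libraries, against 51.2 and 80.6 RPKM in the Mll1+/+ TNF and control libraries. The read ratio was 2.53 with TNF (2.46 to 2.60) and 1.999 in the controls (1.95 to 2.04). The log2 ratio of 1.33 with TNF was past the size rule and that of 0.99 in the controls lay just inside it. It was past the rule under median-ratio and upper-quartile scaling and under scaling without the 20 most abundant genes (1.29), and was 0.73 with the trend on transcript length removed.

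Thbs2 had 9.66 and 9.52 RPKM in the Mll1-/- TNF and control libraries, against 6.17 and 6.05 RPKM in the Mll1+/+ TNF and control libraries. The read ratio was 1.57 (1.44 to 1.71) both with TNF and in the controls, log2 0.61 in each case and within the size rule. Both thrombospondins were higher in the Mll1-/- libraries, and Thbs1 RNA exceeded that of Thbs2 by 13.4 and 16.9 times in the Mll1-/- TNF and control libraries, against 8.30 and 13.3 times in the Mll1+/+ ones.

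Spp1 encodes osteopontin, a phosphoprotein that binds integrins and CD44 and is secreted in bone and inflamed tissue. It had 783 and 626 RPKM in the Mll1-/- TNF and control libraries, against 1307 and 1297 RPKM in the Mll1+/+ TNF and control libraries. It was the most abundant member in each library and the only member besides the collagen VI chains that was lower in the Mll1-/- ones. It was 1.67 times lower with TNF (1.64 to 1.70) and 2.07 times lower in the controls (2.04 to 2.11), log2 -0.74 and -1.05. The control value lay inside the size rule under scaling without the 20 most abundant genes (-0.75), under upper-quartile scaling and with the length trend removed. Osteopontin RNA stood at 4.97 and 3.66 times the level of fibronectin RNA in the Mll1-/- TNF and control libraries, against 20.7 and 21.9 times in the Mll1+/+ ones.

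**Figure D4:**
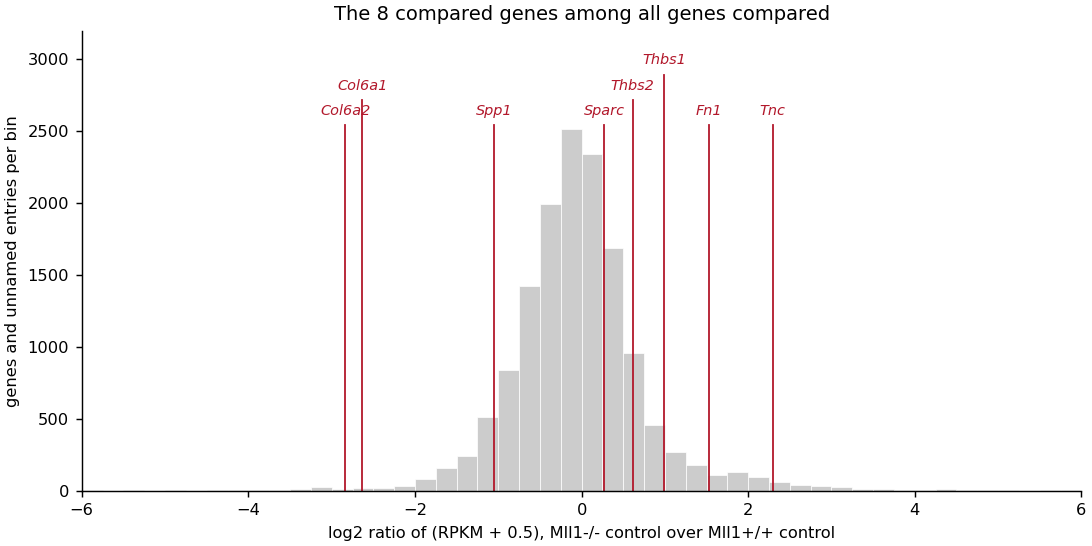
Histogram of the log2 ratio of Mll1-/- control over Mll1+/+ control for the 14386 genes and unnamed transcripts compared (bins 0.25 wide, values beyond 6 drawn at the edge), with the 8 members marked. The median of all is -0.07, and the members run from -2.84 (Col6a2) to 2.30 (Tnc).

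The TNF comparison set TNF over control within each genotype. No member was past the size rule in either. In the Mll1-/- cells 0 of 8 were higher and 0 lower, where 0.688% of all genes were higher and 0.160% lower. In the Mll1+/+ cells 0 of 8 were higher and 0 lower, where 0.521% of all genes were higher and 0.0556% lower. The members' median log2 ratio was -0.06 in Mll1-/- and -0.01 in Mll1+/+ cells, against 0.02 and -0.02 over all genes. Counting intervals excluded 1 for 5 members in each genotype, 1 above and 4 below in Mll1-/- cells and 2 above and 3 below in Mll1+/+ cells. The share over all genes was not computed here either, and with many reads small ratios also exclude 1, as for Sparc at 0.890 in Mll1-/- cells. The TNF comparisons use the same control libraries as the genotype comparison of the controls, so these values are not independent of those above.

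Thbs1 had the lowest TNF ratio of the members in both genotypes. In Mll1-/- cells it was 0.805 (0.787 to 0.822), log2 -0.31, and 1151 genes had a lower log2 ratio. In Mll1+/+ cells it was 0.635 (0.618 to 0.653), log2 -0.65, and 53 genes (0.368%) lay lower. The Thbs1 ratio in Mll1+/+ cells thus lay outside the middle 95% of all genes, -0.37 to 0.45, and that in Mll1-/- cells lay inside its counterpart, -0.45 to 0.73. Thbs2 was near 1 in both, at 1.02 (0.934 to 1.10) in Mll1-/- and 1.02 (0.934 to 1.11) in Mll1+/+ cells. With the length trend removed, Thbs1 was no longer the lowest member in Mll1-/- cells, at log2 -0.14 against -0.18 for Sparc.

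Sparc was lower with TNF in both genotypes by a small amount, with a ratio of 0.890 (0.870 to 0.911) in Mll1-/- and 0.854 (0.836 to 0.872) in Mll1+/+ cells. Of the collagen VI chains, Col6a1 had a ratio of 1.08 (0.988 to 1.17) in Mll1-/- and 0.978 (0.9504 to 1.01) in Mll1+/+ cells, where both intervals include 1. Col6a2 had 0.985 (0.871 to 1.11) in Mll1-/- and 0.896 (0.863 to 0.931) in Mll1+/+ cells. The Mll1-/- intervals are wider because those libraries held fewer reads of both chains (515 to 1081, against 5148 to 9225 in the Mll1+/+ ones), and no difference between the genotypes follows from which interval includes 1.

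Fn1 and Tnc had TNF ratios on opposite sides of 1 in the 2 genotypes, and the share of all genes that did so was not computed. Fn1 had a ratio of 0.921 (0.906 to 0.937) in Mll1-/- and 1.07 (1.05 to 1.10) in Mll1+/+ cells. Tnc had 0.930 (0.888 to 0.975) in Mll1-/- and 1.32 (1.21 to 1.43) in Mll1+/+ cells, and 3.50% of all genes had a higher log2 ratio in Mll1+/+ cells. With the length trend removed, the Mll1-/- values turn to log2 0.11 for Fn1 and 0.10 for Tnc. Spp1 had a ratio of 1.25 (1.23 to 1.28) in Mll1-/- and 1.01 (0.995 to 1.02) in Mll1+/+ cells.

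**Figure D5:**
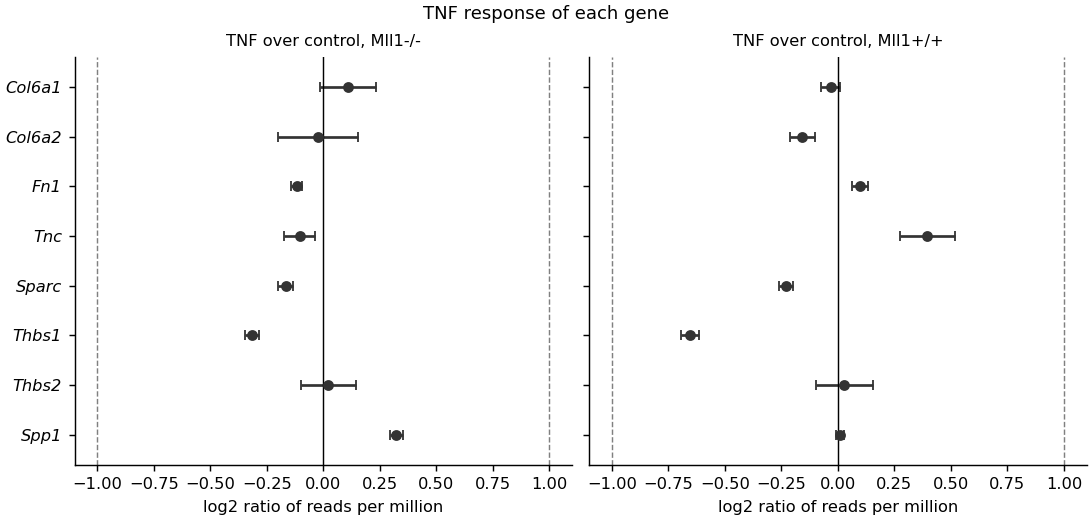
Log2 of the TNF to control read ratio, scaled to library totals, for 8 members in Mll1-/- cells (left) and Mll1+/+ cells (right), with 95% counting intervals and dashed lines at 1 and -1. All members lie within the dashed lines, and Thbs1 is the lowest in both panels.

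The difference between the TNF responses was taken as the log2 TNF ratio in Mll1-/- cells minus that in Mll1+/+ cells. Of the 8 members 0 were higher and 0 lower past the size rule, where 0.758% of all genes were higher and 0.424% lower. The difference ranged from -0.47 for Tnc to 0.34 for Thbs1. On reads, the Tnc difference was -0.50 (-0.64 to -0.36) and that of Fn1 was -0.22 (-0.26 to -0.17), while Thbs1 was at 0.34 (0.29 to 0.39) and Spp1 at 0.31 (0.28 to 0.35). These intervals exclude 0 as counting error goes, but 4 pooled libraries give no spread against which to test them. On the log2(RPKM + 0.5) scale, scaling without the 20 most abundant genes left 0.15 for Thbs1 and 0.12 for Spp1, outside those intervals. With the length trend removed the Fn1 difference turned to 0.06 and that of Tnc became -0.23. In that setting the Thbs1 difference rose to 0.54, above its interval, and that of Spp1 was 0.16. The interval also excluded 0 for Col6a1, at 0.14 (0.0089 to 0.27), and for Sparc, at 0.06 (0.015 to 0.11). That makes 6 of the 8 members, and the share over all genes was not computed. The interval included 0 for Col6a2, at 0.14 (-0.05 to 0.32), and for Thbs2. The differences of Col6a1, Col6a2, Sparc and Thbs2 lay between -0.01 and 0.14 and turned in sign under at least 1 other scaling or with the trend removed.

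Of 30 further matricellular and collagen VI genes, 23 had an entry and 12 reached 1 RPKM. With TNF the 12 held 2 genes above and 2 below the size rule, where 6.71% of all genes were above and 4.50% below. In the controls the list held 1 above and 2 below, where 7.11% of all were above and 7.99% below, so the share above was near that of all genes. The list's median log2 ratio was 0.12 with TNF, against -0.05 over all genes, and -0.17 in the controls, against -0.07 over all genes. Under scaling without the 20 most abundant genes the median in the controls turned to 0.13, and 3 were higher with TNF. None of the 12 was past the rule for TNF in either genotype.

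Tgfbi, which encodes a TGF-beta-induced protein that binds collagen VI microfibrils, was the lowest of this list. It had 2 and 0 reads in the Mll1-/- TNF and control libraries, against 625 and 752 reads in the Mll1+/+ TNF and control libraries, where it stood at 8.34 and 10.1 RPKM. Fbln5, the fibulin-5 gene of elastic fibres, had 1.13 and 1.08 RPKM in the Mll1-/- TNF and control libraries, against 6.13 and 7.35 RPKM in the Mll1+/+ ones (log2 -2.03 with TNF and -2.32 in the controls). Ccn3, a secreted regulator of adhesion, was the highest, with 2.32 and 1.62 RPKM in the Mll1-/- TNF and control libraries, against 0.347 and 0.137 RPKM in the Mll1+/+ ones (1.73 in both comparisons). Ccn5 was past the rule with TNF, at 2.35 RPKM in Mll1-/- and 0.401 RPKM in Mll1+/+ cells (1.66). In the controls Fbln1 (0.684) and Ccn5 (0.675) followed Ccn3. Ccn3 and Ccn5 lay close to the 0.5 RPKM added before taking logs, which understates their ratios and can set this order. Ccn3 had 106 and 77 reads in the Mll1-/- TNF and control libraries, against 23 and 9 in the Mll1+/+ ones. A partner of collagen VI was thus at or near 0 where the chains themselves were lower.

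Among the cell-surface receptors of the members more were higher than lower in the Mll1-/- libraries. Of 25 listed, 23 had an entry and 15 reached 1 RPKM. With TNF 5 of the 15 were higher past the rule and 1 lower, where 6.71% of all genes were higher and 4.50% lower, and the median was 0.57, against -0.05 over all. In the controls 5 were higher and 2 lower, where 7.11% of all were higher and 7.99% lower, and the median was 0.79, against -0.07 over all. Under scaling without the 20 most abundant genes the control counts were 9 higher and 1 lower, but that scaling also moved the counts over all genes to 1524 higher and 623 lower, in place of 1023 and 1150. The 15 receptors held none past the rule for TNF in either genotype.

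Itgb3, the integrin beta-3 subunit that binds osteopontin and fibronectin, had 6.85 and 4.98 RPKM in the Mll1-/- TNF and control libraries, against 1.65 and 1.25 RPKM in the Mll1+/+ ones (log2 1.77 with TNF and 1.65 in the controls). Itga5, the alpha-5 subunit of the fibronectin receptor, had 67.6 and 58.7 RPKM in the Mll1-/- TNF and control libraries, against 22.2 and 20.8 RPKM in the Mll1+/+ ones (1.58 and 1.47). Fibronectin and its receptor subunit were thus higher in the same libraries. Spp1 went the other way from its receptor genes, being lower where Itgb3 and Cd44 were higher. Cd44, named after its values were seen, had log2 ratios of 1.12 with TNF and 1.28 in the controls. Cspg4, which encodes NG2, a proteoglycan that binds collagen VI, had 1.36 and 1.33 RPKM in the Mll1-/- TNF and control libraries, against 5.80 and 5.35 RPKM in the Mll1+/+ ones (-1.76 and -1.68). Sdc1, the syndecan-1 gene, had log2 ratios of -0.90 with TNF and -1.21 in the controls, and the control value was -0.91 under scaling without the 20 most abundant genes. NG2 was thus lower in the same libraries as the collagen VI chains, whereas other receptors that can bind collagen VI were not. Antxr1 had log2 ratios of 0.75 with TNF and 0.85 in the controls, and Antxr2 had 0.63 and 0.81. The collagen-binding integrin subunits Itga1 and Itgb1 had 0.29 and 0.49 with TNF and 0.64 and 0.66 in the controls. These 4 genes, named after their values were seen, were within the size rule. Cd36, a thrombospondin receptor, had 1 read over the 4 libraries.

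By likeness of pattern the 2 collagen VI chains were nearest to each other. Likeness was the Euclidean distance over the 4 libraries between log2(RPKM + 0.5) values centred on each gene's mean, with 0 for an identical pattern. Col6a1 and Col6a2 lay 0.241 apart, the nearest pair of members, followed by Sparc and Thbs2 at 0.381, Fn1 and Thbs1 at 0.601 and Fn1 and Tnc at 0.672. The farthest pair was Col6a2 and Tnc, at 4.85.

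Among 9321 named genes that could be set beside the members, those nearest to the mean of the collagen VI chains were Pgap4, at 0.108, and Pacs1, at 0.113. Both were near 0 in the Mll1-/- libraries, so their distances are set in large part by the 0.5 RPKM added before taking logs. Pgap4 had 0.0174 and 0 RPKM in the Mll1-/- TNF and control libraries, against 2.52 and 3.07 RPKM in the Mll1+/+ ones. Nearest to Tnc was Slit2 at 0.111, a gene for a secreted guidance protein, with 8.97 and 9.77 RPKM in the Mll1-/- TNF and control libraries, against 1.94 and 1.55 RPKM in the Mll1+/+ ones. Nearest to Thbs1 was Chst1 at 0.138, with 24.8 and 33.4 RPKM in the Mll1-/- TNF and control libraries, against 10.2 and 17.5 RPKM in the Mll1+/+ ones. The nearest genes to Fn1, Sparc, Thbs2 and Spp1 were Ppp1r12b (0.0528), Sec22c (0.0198), Exosc9 (0.0165) and Spcs1 (0.0214). The distances rest on 4 libraries and describe those libraries only.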

How the data were processed

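The deposited values are RPKM, per the file headers, made by the authors for 27344 transcript entries in each of the 4 libraries, and no column lacked a sample. The submitters' processing notes name TopHat and DESeq without version or role. The genome build, annotation, counting program and strand were not given in the sources used here. Overlapping antisense genes therefore cannot be separated.

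The RPKM steps gave whole reads, within 0.0001 reads, for 27340 entries (99.99%), and with them the library totals and transcript lengths. A count test needs replicates and was not run. The reads summed over entries came to 1.71 and 1.67 times the total in the Mll1-/- TNF and control libraries, and to 1.75 and 1.77 times in the Mll1+/+ ones. Accessions were named through RefSeq (20849 entries, GRCm38.p6) and GENCODE M21 (102). The 6393 unnamed entries were kept, and for a symbol with several entries the one with the highest mean RPKM was used.

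Ratios used log2(RPKM + 0.5) over genes with at least 1 RPKM in 1 library. Counting intervals are exact Poisson on reads for a single RPKM, exact binomial for a ratio of reads, and normal for the difference of responses. Recovery and intervals were run on Poisson reads simulated from the recovered totals and lengths, with those lengths given as known. That checks the code and cannot show that the real reads follow this model. In the real data 79.0% of the recovered lengths with a GENCODE length lay within 10% of it. Python 3.11.15, numpy 2.4.6, pandas 2.3.3 and scipy 1.17.1 were used. All members were named, with at most the 2 highest and 2 lowest of each further list. Also named were the genes of nearest pattern among those with at least 3 RPKM in 1 library. Neighbours and some receptors were chosen after their values were seen. The receptors Itga3, Lrp1 and Cd44 also passed the size rule in the controls. The members and lists were chosen with earlier results of these data known. Alternatives were tried for the pseudocount, low-value filter, scaling, length trend, choice of entry and size rule.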

Additional observations from a re-analysis of the deposited data

Results flagged for a closer look

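Fn1 and Tnc had TNF ratios in opposite directions in the 2 genotypes, lower in Mll1-/- cells and higher in Mll1+/+ cells, with each counting interval excluding 1. The log2 TNF ratio of Fn1 was -0.12 in Mll1-/- and 0.10 in Mll1+/+ cells, a difference of -0.21, with 20.1% of all genes lower. In Mll1-/- cells 29.1% of all genes had a lower log2 TNF ratio than Fn1 and 31.2% a lower one than Tnc. The share of all genes with ratios in opposite directions was not computed. That of Tnc was -0.10 in Mll1-/- and 0.36 in Mll1+/+ cells, a difference of -0.47, with 4.23% of all genes lower. Neither difference was tested, since each group is 1 library. With the trend on transcript length removed, the Mll1-/- ratios became 0.11 for Fn1 and 0.10 for Tnc, both above 0, and the differences 0.06 and -0.23.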

How the results depend on the processing

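The 40 member values were computed under 10 alternatives, and no value past the size rule changed direction. With a size rule of 1.5-fold, 4 members were higher in the Mll1-/- control library in place of 2, where 2064 of all genes were higher and 2804 lower. In the genotype comparison with TNF 4 were higher in place of 3 and 3 lower in place of 2, where 1765 of all were higher and 1668 lower. With TNF in Mll1+/+ cells 1 was lower, Thbs1, in place of 0, where 83 of all were. Of the 40 values 2 crossed the size rule, those of Thbs1 (0.73 to 1.29) and Spp1 (-1.05 to -0.75) in the controls, and 11, all small TNF ratios or differences of response, changed sign in at least 1 setting. Scaling without the 20 most abundant genes shifted the median of all log2 ratios by 0.28 in the genotype comparison of the controls, 0.10 in that with TNF, -0.15 for TNF in Mll1-/- cells and -0.17 for the difference of responses. The Col6a1, Col6a2, Fn1 and Tnc genotype ratios stayed past the rule under all 10 alternatives. No paired analysis was possible because each group is 1 library of pooled cells, so no replicate could be left out either.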
